A study of Mus musculus with 8 samples.

Results

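The 10 genes described here set where pyruvate goes in the liver cell. They are the mitochondrial pyruvate carrier subunits Mpc1 and Mpc2, the lactate dehydrogenase subunits Ldha and Ldhb, the pyruvate dehydrogenase kinases Pdk1, Pdk2, Pdk3 and Pdk4, and the pyruvate dehydrogenase phosphatases Pdp1 and Pdp2. They were taken by symbol from the 35275 Ensembl genes of the count table, all 10 were present, and 9 were among the 13168 genes with enough reads to be tested. Liver RNA was sequenced from 4 mice in which both copies of a floxed exon 10 of Pcx were deleted by Albumin-Cre (Pcx L-/-) and from 4 littermates. The littermates are labelled WT and are given in the study's methods as Pcx f/f. All were male, 9 weeks old, kept on chow and fasted for 24 h before the liver was taken. The labels give the strain as C57BL/6, and by the study's methods the Pcx allele came from C57BL/6NTac stock that was crossed to Flpe mice before Albumin-Cre. Albumin-Cre acts in hepatocytes, so other liver cells keep Pcx, and the whole tissue was sequenced. The genotypes were compared to ask how the fasted liver's transcripts differ once pyruvate can no longer be carboxylated in hepatocytes.

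Pyruvate reaches the mitochondrial matrix through a carrier built from one Mpc1 and one Mpc2 subunit. In the matrix it can be carboxylated to oxaloacetate by pyruvate carboxylase, the product of Pcx, or oxidized to acetyl-CoA by the pyruvate dehydrogenase (PDH) complex. Lactate dehydrogenase converts pyruvate and lactate into each other in the cytosol. The Pdk enzymes phosphorylate the E1 alpha subunit and switch PDH off, the Pdp enzymes remove the phosphate and switch it on, and Pdk4 is known as a gene that fasting induces in liver.

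Each mouse gave 1 library, with between 12016242 and 20023108 reads on genes. Counts were scaled by edgeR's TMM method, and a normalized count is a count on that common scale. Pcx itself had between 14371 and 22059 normalized counts in the 4 WT mice and between 556 and 758 in the 4 Pcx L-/- mice, so that it fell by 4.80 ± 0.19 (standard error) on the log2 scale (adjusted p = 3.66e-07 by edgeR's quasi-likelihood test). Pcx L-/- replicate 1 stood apart from the other 3 in measures that recur below. Its 5 red blood cell markers summed to 69307 normalized counts, against 4747 to 16715 in the WT mice and 6244 to 15778 in the other Pcx L-/- mice. Its 10 hepatocyte markers, the largest of which is Alb, summed to 1743969, against 1992907 to 2376010 in WT and 1112125 to 1264672 in the other 3. It was also the only Pcx L-/- mouse with an identification number in the 500s, a range that it shared with WT replicates 1 and 2, whereas the other 5 mice had numbers in the 800s. Of the hepatocyte markers 0 of 10 passed the test as higher and 3 (Apoa1, Cyp2e1 and Pck1) as lower. The median log2 fold change of the 10 was -0.57. For 4 of them the genotypes did not overlap, as held for 27.6% of all tested genes. Of the markers of other cells, only Cd68 of 7 macrophage genes passed as higher and Sox9 of 4 tested cholangiocyte genes as lower, while 0 of 5 red blood cell, 7 endothelial, 6 stellate and 5 tested lymphocyte and neutrophil genes passed. The 6 skeletal muscle and 5 adipocyte markers summed to at most 11.8 and 9.33 normalized counts in any library, and none had enough reads to be tested. In whole tissue, fewer cells of a type and less RNA per cell cannot be told apart.

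The kinase Pdk1 was lower in Pcx L-/- liver, a call that held in 19 of 19 alternative settings. The carrier subunit Mpc2 was lower and the kinase Pdk4 higher on calls that were lost in 10 and 14 of these settings. The other 6 tested genes (Mpc1, Ldha, Ldhb, Pdk2, Pdp1 and Pdp2) did not pass the test, and Pdk3 was too low to be tested. With the threshold set at 0.05 on the p-value of edgeR's quasi-likelihood test, adjusted over all tested genes, 3 of the 9 tested genes passed (33.3%), where 27.6% of all 13168 tested genes did, so the group as a whole passed about as often as any gene. Of the 9, 1 was higher, where 14.1% of all genes were, and 2 were lower, where 13.5% were. The values of the genotypes did not overlap for 2 of the 9 genes, Mpc2 and Pdk1, where this held for 27.6% of all tested genes. Of all tested genes 7.22% passed and differed at least 2-fold, and of the 9 only Pdk4 did. The median log2 fold change of the 9 was 0.00 and that of all tested genes was -0.01.

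**Figure D1:**
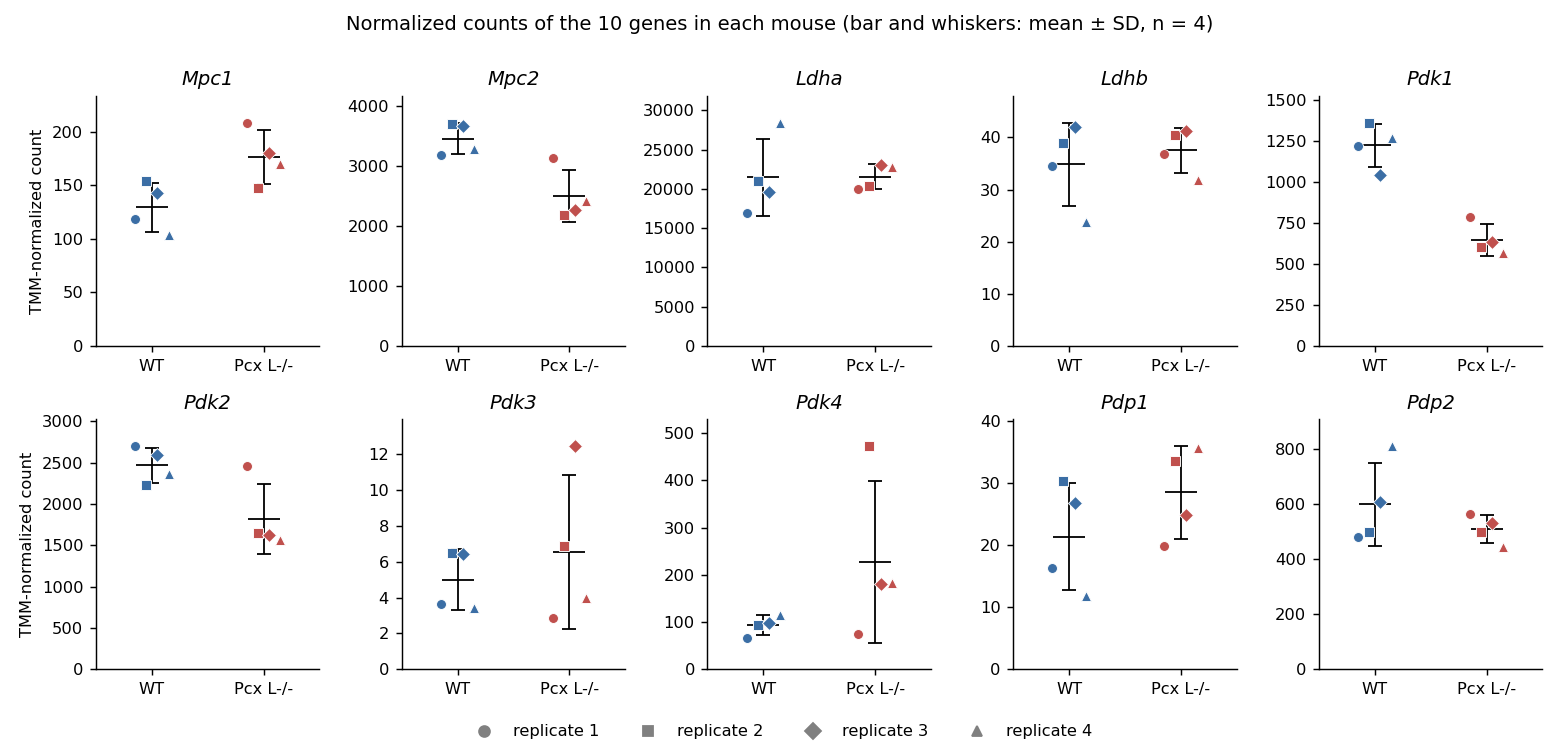
TMM-normalized counts of each gene (vertical axes, each from 0) in each of the 4 WT and 4 Pcx L-/- mice, with 1 symbol per mouse and the mean ± SD as bar and whiskers. The 4 Pdk1 values of Pcx L-/- mice (565 to 784) lie under all 4 WT values (1042 to 1359). In Pdk1, Mpc2, Pdk2 and Pdk4 the circle of Pcx L-/- replicate 1 lies nearest to the WT mice.

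The pyruvate carrier was read through 2 genes on different chromosomes. Mpc2 (ENSMUSG00000026568, chr1:165460637-165481214, plus strand, GRCm38) had normalized counts of 3182, 3704, 3666 and 3292 in WT replicates 1 to 4, and of 3140, 2182, 2265 and 2424 in Pcx L-/- replicates 1 to 4. All 4 Pcx L-/- values were below all 4 WT values, but replicate 1 only just, and the other 3 were well apart. The mean fell from 3461 ± 263 (SD, n = 4) to 2503 ± 437 (SD, n = 4). The fitted log2 fold change was -0.47 with a standard error of 0.14 (adjusted p = 0.0259 by edgeR's quasi-likelihood test). The call was lost in 10 of 19 alternative settings, among them scaling by library size only (-0.20, adjusted p = 0.212) and leaving out WT replicate 2 or 3 or Pcx L-/- replicate 2, 3 or 4, in which the adjusted p ran up to 0.0839.

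Mpc1 (ENSMUSG00000023861, chr17:8282904-8297661, plus strand) gave far fewer reads. Its normalized counts were 118, 154, 143 and 104 in WT replicates 1 to 4, and 209, 147, 180 and 170 in Pcx L-/- replicates 1 to 4. The genotypes overlapped, because Pcx L-/- replicate 2 was below WT replicate 2, and the log2 fold change of 0.44 (standard error 0.16) did not pass edgeR's quasi-likelihood test (adjusted p = 0.0703). It passed as higher with scaling by library size only (0.71, adjusted p = 0.0101 by edgeR). On the deposited FPKM values, which are scaled to the library total, Mpc1 stood at 5.28 to 8.88 in WT and at 10.5 to 12.8 in Pcx L-/- mice, with no overlap, and limma on these values called it higher as well. Mpc1 also shares 4296 bases of its locus with 4930506C21Rik on the opposite strand, which drew 206 reads in all.

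How the Mpc1 reads were assigned limits this measurement. A processed pseudogene, Mpc1-ps (ENSMUSG00000091498, chr12:110858565-110858894, 330 bases), which was looked at after its values were seen, is 99.7% identical to the 330 coding bases of the Mpc1 transcript that it resembles most and drew more reads than Mpc1 itself, 2156 against 1283 over the 8 libraries. The coding stretch below is shown because it is the same, base for base, in Mpc1 and in the pseudogene over 289 bases, so that a read lying inside it cannot be placed by sequence alone. The capitals mark the bases on either side of each of the 4 exon junctions annotated for Mpc1, which the pseudogene carries joined, without introns.
Mpc1, shared coding stretch: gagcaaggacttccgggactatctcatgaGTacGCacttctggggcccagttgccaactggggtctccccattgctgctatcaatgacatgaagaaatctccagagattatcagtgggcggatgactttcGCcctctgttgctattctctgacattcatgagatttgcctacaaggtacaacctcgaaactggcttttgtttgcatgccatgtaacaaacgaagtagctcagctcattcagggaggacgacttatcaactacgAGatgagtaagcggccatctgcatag
The stretch ends at the stop codon.

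Mpc1-ps had 249 ± 42.2 normalized counts in WT and 273 ± 38.8 in Pcx L-/- mice (SD, n = 4 each), with a log2 fold change of 0.12 that did not pass edgeR's test (adjusted p = 0.579). With the reads of both added together, the sums were 355, 455, 401 and 304 in WT replicates 1 to 4 and 519, 366, 463 and 449 in Pcx L-/- replicates 1 to 4. These overlapped, and the log2 fold change of 0.24 did not pass edgeR's test (adjusted p = 0.247). The share of these reads that was assigned to Mpc1 was itself higher in every Pcx L-/- mouse, at 37.7% to 40.3% against 33.3% to 35.7% in WT.

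The balance of the carrier subunits separated the genotypes on a measure that library scaling cannot move. Reads on Mpc1 for each read on Mpc2 came to 0.0372, 0.0415, 0.0390 and 0.0314 in WT replicates 1 to 4 and to 0.0664, 0.0675, 0.0796 and 0.0700 in Pcx L-/- replicates 1 to 4. Every Pcx L-/- mouse, replicate 1 included, was above every WT mouse. With the pseudogene's reads counted as Mpc1 the ratio was 0.109 ± 0.0126 in WT and 0.181 ± 0.0182 in Pcx L-/- mice (SD, n = 4 each), again with no overlap. Per length, Mpc1 made up 10.5% ± 1.09 of the summed carrier FPKM in WT and 18.2% ± 1.25 in Pcx L-/- mice (SD, n = 4 each). The deposited FPKM of Mpc2 rest on a length of 3029 bases, that of the retained-intron transcript Mpc2-202, and with the 1025 bases of the coding transcript Mpc2-201 the Mpc1 share was 3.24% to 4.24% in WT and 6.61% to 7.83% in Pcx L-/- mice. These shares count only the reads assigned to Mpc1. With the pseudogene's reads added, Mpc1 stood to Mpc2, per kilobase of coding transcript, at 0.116 ± 0.0135 in WT. In Pcx L-/- mice this ratio was 0.193 ± 0.0194 (SD, n = 4 each).

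**Figure D2:**
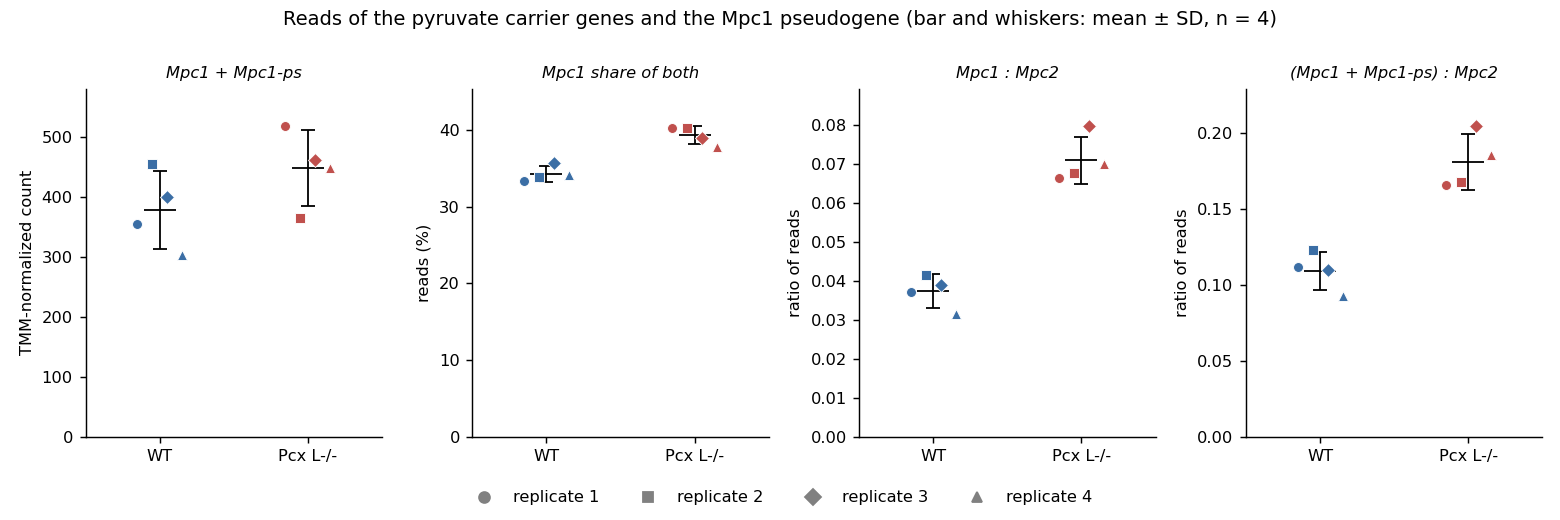
Reads of the carrier genes in each mouse (1 symbol per mouse, mean ± SD as bar and whiskers, axes from 0): the normalized counts of Mpc1 and Mpc1-ps added, the percentage of those reads assigned to Mpc1, and the ratios of reads to Mpc2 without and with the pseudogene. The summed counts of the genotypes overlap, while the ratios to Mpc2 do not (at most 0.0415 in WT and at least 0.0664 in Pcx L-/- mice without the pseudogene).

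The genotypes were not told apart by lactate dehydrogenase. Ldha (ENSMUSG00000063229, chr7:46841475-46855627, plus strand), the subunit that predominates in liver and muscle, was the most abundant of the 10 genes. Its normalized counts were 16947, 21034, 19592 and 28413 in WT replicates 1 to 4 and 19999, 20386, 23066 and 22771 in Pcx L-/- replicates 1 to 4. The lowest and the highest mouse were both WT, so the Pcx L-/- values lay inside the WT range. The log2 fold change was 0.00 (95% interval -0.41 to 0.42, adjusted p = 0.991 by edgeR's quasi-likelihood test). The estimate was above 0 in 9 and below 0 in 10 of 19 alternative settings and passed the test in 0 of them. Of the 23 other genes with a stretch of at least 90% identity to Ldha, 13 were in the count table and drew 34 reads in all, against 173511 for Ldha.

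Ldhb (ENSMUSG00000030246, chr6:142490249-142507957, minus strand), the subunit typical of heart, was hardly expressed. Its normalized counts ran from 23.8 to 41.9 in WT and from 31.8 to 41.2 in Pcx L-/- mice. The log2 fold change was 0.10 (95% interval -0.47 to 0.66, adjusted p = 0.797 by edgeR). Ldha made up 99.8% of the summed lactate dehydrogenase FPKM in each genotype, and no mouse was under 99.7%.

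Among the kinases that switch PDH off, Pdk1 had the smallest p-value of the 9 tested genes. Pdk1 (ENSMUSG00000006494, chr2:71873224-71903858, plus strand) had normalized counts of 1217, 1359, 1042 and 1268 in WT replicates 1 to 4, and of 784, 600, 634 and 565 in Pcx L-/- replicates 1 to 4. All 4 Pcx L-/- values were below all 4 WT values, with a gap between 784 and 1042. The mean fell to 52.9% of WT. The fitted log2 fold change was -0.92 with a standard error of 0.13 (adjusted p = 0.00109 by edgeR's quasi-likelihood test). The exact two-sided permutation test gave p = 0.0286, the smallest that 4 mice against 4 allow. The call passed in 19 of 19 alternative settings, with log2 fold changes between -1.03 and -0.58. The 17 genes that share a stretch of at least 90% identity with Pdk1 do so over 105 to 142 bases, at most 2.74% of its transcript. Of these, 16 were in the count table and drew 148174 reads in sum, 76519 of them on Adk, against 7308 for Pdk1.

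Pdk2 (ENSMUSG00000038967, chr11:95026258-95041354, minus strand), the main kinase of liver by level here, had normalized counts of 2701, 2232, 2588 and 2359 in WT replicates 1 to 4. In Pcx L-/- replicates 1 to 4 they were 2455, 1646, 1623 and 1561. Pcx L-/- replicate 1 lay inside the WT range, and the other 3 lay close together below it. The log2 fold change of -0.44 (standard error 0.15) did not pass edgeR's test (adjusted p = 0.0541). It passed as lower by DESeq2's Wald test (-0.45, adjusted p = 0.0298), without Pcx L-/- replicate 1 (-0.62, adjusted p = 0.00125 by edgeR) and within the mice numbered in the 800s (-0.62, adjusted p = 0.00405 by edgeR). With the range of mouse numbers as a covariate in edgeR, Pdk2 was at -0.40 (adjusted p = 0.0526), Mpc2 at -0.43 (adjusted p = 0.0287) and Pdk4 at 0.91 (adjusted p = 0.123). The part of the red blood cell signal in these values was not tested apart from leaving out the mouse that carried it. An antisense gene, Gm11513, overlaps Pdk2 and drew 54 reads over the 8 libraries, against at least 1390 for Pdk2 in each.

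Pdk4 (ENSMUSG00000019577, chr6:5483351-5496309, minus strand) was low in these fasted livers. Its normalized counts were 65.5, 94.3, 97.8 and 115 in WT replicates 1 to 4, and 73.6, 472, 181 and 182 in Pcx L-/- replicates 1 to 4. Replicate 1 of Pcx L-/- lay inside the WT range, replicates 3 and 4 were above it, and replicate 2 was far above all other mice. The mean rose from 93.3 ± 20.7 (SD, n = 4) to 227 ± 171 (SD, n = 4), a log2 fold change of 1.31 (standard error 0.45), and edgeR's adjusted p of 0.0496 was only just under the threshold. The call was lost in 14 of 19 alternative settings, among them DESeq2 (adjusted p = 0.0715), the covariate for mouse numbers and every setting that left out 1 mouse other than Pcx L-/- replicate 1. Without replicate 2 the log2 fold change was 0.66 (adjusted p = 0.169 by edgeR), and without replicate 1 it was 1.60 (adjusted p = 0.00386 by edgeR). The exact two-sided permutation test gave p = 0.114.

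Pdk3 (ENSMUSG00000035232, chrX:93764607-93832201, minus strand) was close to its detection limit. It had 2 to 6 reads in each WT library and 3, 9, 16 and 4 reads in Pcx L-/- replicates 1 to 4, too few to be tested. Without a filter on low counts its log2 fold change was 0.41 (adjusted p = 0.688 by edgeR).

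Per length, the kinase transcripts of WT liver were mostly Pdk2, with 80.5% ± 2.83 of the summed Pdk FPKM (SD, n = 4), followed by Pdk1 with 17.3% ± 2.57 and Pdk4 with 1.98% ± 0.50. In Pcx L-/- liver Pdk2 held 80.4% ± 4.94, Pdk1 12.5% ± 0.83 and Pdk4 6.81% ± 5.03 (SD, n = 4). The Pdk1 share lay between 14.5% and 20.4% in WT and between 11.7% and 13.5% in Pcx L-/- mice and did not overlap, whereas the Pdk2 and Pdk4 shares did. The Pdk4 share was 1.67%, 13.7%, 5.76% and 6.08% in Pcx L-/- replicates 1 to 4, so it exceeded every WT mouse (1.29% to 2.49%) in 3 of them. The summed kinase FPKM was 72.9 ± 6.24 in WT and 64.7 ± 6.61 in Pcx L-/- mice (SD, n = 4 each), with overlap.

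**Figure D3:**
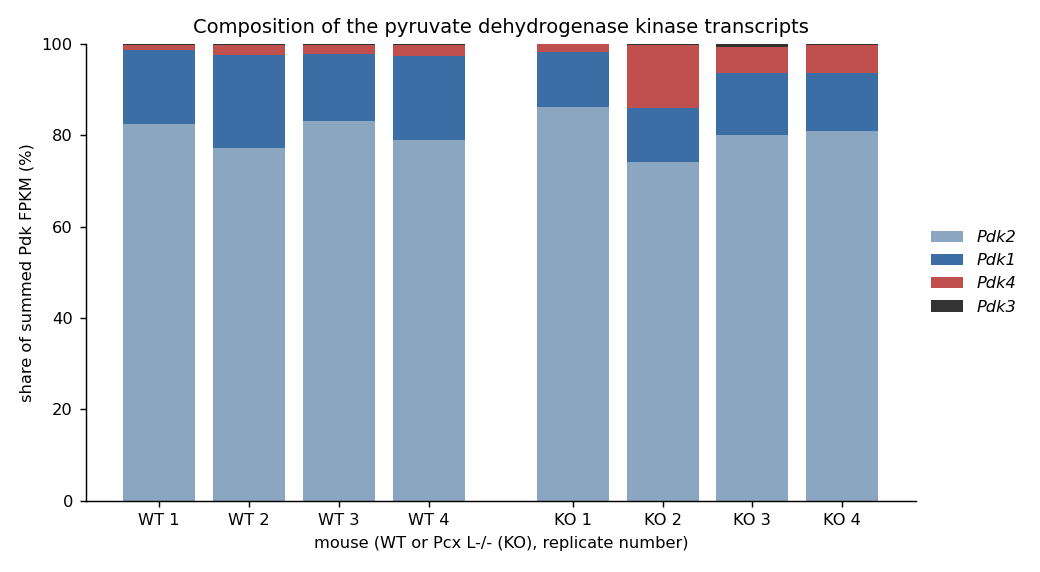
Share of each kinase gene in the summed FPKM of Pdk1 to Pdk4 (vertical axis, percent), with 1 stacked bar per mouse. Pdk2 fills most of every bar, the Pdk1 segment is narrower in each Pcx L-/- mouse (11.7% to 13.5%) than in each WT mouse (14.5% to 20.4%), and the Pdk4 segment is widest in Pcx L-/- replicate 2 (13.7%).

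Neither phosphatase gene that switches PDH on passed the test. Pdp2 (ENSMUSG00000048371, chr8:104591451-104599026, plus strand), the phosphatase known for its response to insulin, had normalized counts of 479, 499, 605 and 810 in WT replicates 1 to 4 and of 562, 499, 530 and 444 in Pcx L-/- replicates 1 to 4. WT replicate 4 was the highest mouse, and the genotypes overlapped. The log2 fold change was -0.23 (95% interval -0.62 to 0.17, adjusted p = 0.328 by edgeR's quasi-likelihood test). It passed as lower in 1 of 19 alternative settings, within the mice numbered in the 800s (-0.52, adjusted p = 0.0294 by edgeR). Pdp1 (ENSMUSG00000049225, chr4:11958184-11966452, minus strand), the calcium-stimulated phosphatase, ran from 11.9 to 30.3 normalized counts in WT and from 19.8 to 35.7 in Pcx L-/- mice. Its log2 fold change of 0.39 (95% interval -0.41 to 1.19, adjusted p = 0.413 by edgeR) left a change of more than 2-fold upwards inside the interval. The summed kinase FPKM was 8.05 ± 1.94 times the summed phosphatase FPKM in WT and 6.55 ± 0.80 times in Pcx L-/- mice (SD, n = 4 each), and the genotypes overlapped. The deposited FPKM of Pdp2 rest on 3485 bases, whereas its coding transcript Pdp2-201 has 5692, and with coding transcript lengths the ratio was 12.9 ± 3.06 in WT and 10.4 ± 1.32 in Pcx L-/- mice (SD, n = 4 each), again with overlap.

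The order of the 10 genes by level can be read from FPKM set to coding transcript lengths. In WT liver it ran from Ldha (512 to 768) through Mpc2 (158 to 200), Pdk2 (51.5 to 66.0), Pdk1 (10.9 to 14.5), Mpc1 (5.28 to 8.88), Pdp2 (4.62 to 6.97), Ldhb (0.89 to 1.74), Pdk4 (1.03 to 1.62) and Pdp1 (0.14 to 0.40) to Pdk3 (0.08 to 0.17). Of these neighbours Mpc1 and Pdp2, Ldhb and Pdk4, and Pdp1 and Pdk3 overlapped between mice. In Pcx L-/- liver the order of Mpc1 and Pdk1 was the opposite, with Mpc1 at 10.5 to 12.8 and Pdk1 at 7.29 to 8.63, and these ranges did not overlap in either genotype. This order counts only the reads assigned to Mpc1. With the reads of Mpc1-ps added, the mean normalized count in WT was 379 instead of 130. The place of Mpc1, also relative to Pdk1, therefore depends on how these reads are assigned.

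**Figure D4:**
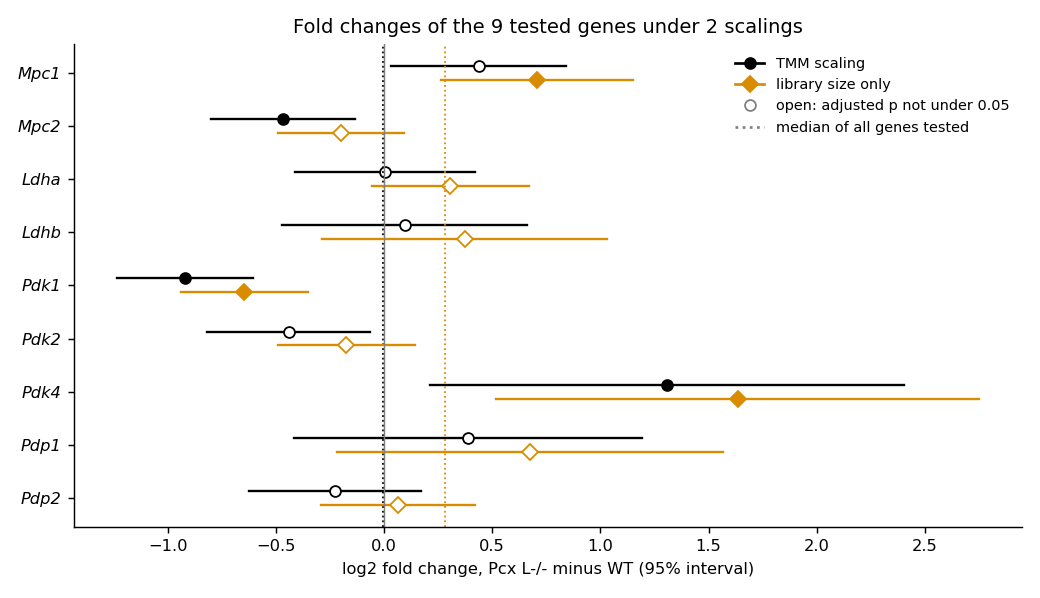
Log2 fold change of the 9 tested genes (horizontal axis, Pcx L-/- minus WT) with its 95% interval, under TMM scaling (circles) and library size only (diamonds), with symbols filled at an adjusted p under 0.05 and dotted lines at the median of all tested genes. Library size only moves that median from -0.01 to 0.28 and each gene by about as much, Pdk1 stays below 0 and filled under both, and Mpc1 and Mpc2 exchange filled and open symbols.

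The scaling decided part of this picture. With library size only, the median over all tested genes was a log2 fold change of 0.28, and 81.8% of the genes called were then higher, against 51.1% with TMM. Relative to that median the fold changes were close to those with TMM, at 0.43 for Mpc1, -0.48 for Mpc2, -0.92 for Pdk1, -0.45 for Pdk2 and 1.36 for Pdk4 on the log2 scale. Pdk1 was called lower and Pdk4 higher under both. Of these 2 scalings only TMM called Mpc2 lower, and only library size called Mpc1 higher. With DESeq2's size factors in edgeR, Pdk1 and Mpc2 were called lower and Pdk4 was not called. Edger's quasi-likelihood test then gave adjusted p = 0.0241 for Mpc2 and 0.0504 for Pdk4.

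**Figure D5:**
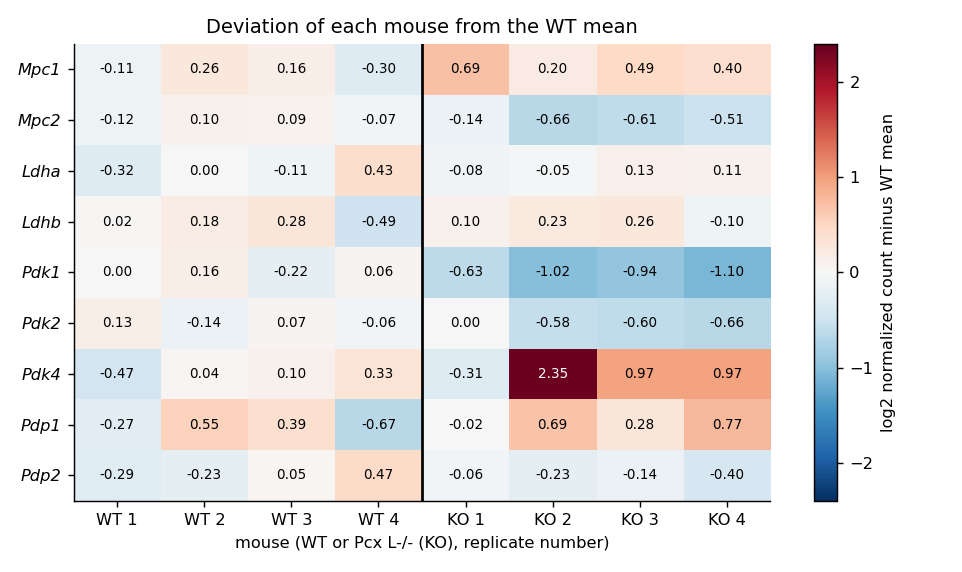
Log2 normalized count of the 9 tested genes in each mouse minus the WT mean of that gene (colour and printed value). Pdk1 is below the WT mean in all 4 Pcx L-/- mice (-0.63 to -1.10), and least so in replicate 1 (-0.63). Pcx L-/- replicate 1 also differs from replicates 2 to 4 in Mpc2 (-0.14), Pdk2 (0.00) and Pdk4 (-0.31).

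Mice differed among themselves in a patterned way. With each genotype's mean removed, log2 normalized counts of Mpc1 and Mpc2 correlated over the 8 mice with r = 0.78, Mpc2 and Pdk2 with r = 0.71, Pdk2 and Pdk4 with r = -0.74, and Mpc2 and Pdk4 with r = -0.72. These are descriptions over 8 libraries that share their scaling, and Pcx L-/- replicate 1 had the highest Mpc2, Pdk1 and Pdk2 and the lowest Pdk4 of its genotype. Over all 8 libraries the genes whose pattern was most like that of Pdk1, among the 13167 other tested genes, were Enho, which encodes the secreted peptide adropin, Lrch1 and Enpp3 (r = 0.99 each). Among those most like Mpc2 were Acat2 (r = 0.99) and Reep3 (r = 0.99). Those most like Pdk4 were Samd4 (r = 0.99), Tbc1d20 (r = 0.98) and Piezo1 (r = 0.97), none of which passed edgeR's test themselves (adjusted p = 0.122, 0.206 and 0.0747).

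Upstream sequence is shown for the 3 genes that passed the test, since they moved in different directions. It is the 250 bases before a start site in RefSeq's GRCm38.p6 annotation, which held such a sequence for 9 of the 10 genes. The motifs AGGTCA (a nuclear receptor core site), ACGTG (core of the hypoxia response element), TGTTTAC (forkhead), TGATGNAA (C/EBP-ATF element) and GGGCGG (GC box) were searched on both strands, and their matches are in capitals.
Pdk1, chr2:71872974-71873223, plus strand: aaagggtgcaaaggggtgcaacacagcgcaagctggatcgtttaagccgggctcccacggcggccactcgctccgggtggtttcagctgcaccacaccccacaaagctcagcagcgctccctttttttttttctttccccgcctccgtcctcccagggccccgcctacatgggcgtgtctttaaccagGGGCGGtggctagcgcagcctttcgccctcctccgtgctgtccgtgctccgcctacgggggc
Mpc2, chr1:165461010-165461259, plus strand: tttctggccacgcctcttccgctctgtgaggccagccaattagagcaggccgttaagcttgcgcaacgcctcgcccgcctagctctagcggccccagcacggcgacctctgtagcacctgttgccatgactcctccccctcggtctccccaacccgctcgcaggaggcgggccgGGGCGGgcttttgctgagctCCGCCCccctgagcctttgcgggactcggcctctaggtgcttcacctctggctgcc
Pdk4, chr6:5496279-5496528, minus strand: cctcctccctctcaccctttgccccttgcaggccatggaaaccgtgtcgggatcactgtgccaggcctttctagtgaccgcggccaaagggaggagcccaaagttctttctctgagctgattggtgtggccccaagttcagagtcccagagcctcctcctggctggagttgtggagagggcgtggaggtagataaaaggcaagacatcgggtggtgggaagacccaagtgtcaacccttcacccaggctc
Pdk1 has 1 GC box and Mpc2 has 2, of a kind that 32.7% of the 32851 promoters in the table hold at least once, and the Pdk4 window has no match to any of the 5 motifs. The windows shown for Pdk1 and Mpc2 are rich in CpG, with 19 in each and an observed-to-expected ratio of 0.76 for Pdk1 and 0.70 for Mpc2. Pdk4 has 6 and a ratio of 0.28, under the median of 0.37 over all promoters. High ratios were not particular to the genes that were lower. Among genes not called they were 0.95 and 0.67 for Mpc1, 0.81 and 0.67 for Pdk2, and 0.89 and 0.50 for Ldha. They were 0.72 for Ldhb and 0.48 for Pdp2, and 1.02 for the untested Pdk3. The window before another Pdk1 start site (chr2:71874904), not shown, has 2 CpG and a ratio of 0.22. The contrast of Pdk1 with Pdk4 therefore depends on the start site taken. Of the other genes, the Ldha start site at chr7:46845804 has ACGTG at 3 places, counting a palindromic CACGTG once. The motif also lies before Pdp2, Pdk3 and a start site of Pdk2, and 16.6% of promoters hold it at least once.

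The complex that these kinases act on was measured through 9 genes of PDH and its lipoylation, all of which were tested. Of them 0 were higher, where 14.1% of all genes were, and 3 were lower, where 13.5% were. Their median log2 fold change was -0.17. The 3 were Pdha1, the E1 alpha subunit that carries the phosphorylation sites (-0.39, adjusted p = 0.0322 by edgeR), Pdhx, the E3-binding subunit (-0.41, adjusted p = 0.0129), and Pdpr, the regulatory subunit of the phosphatase (-0.50, adjusted p = 0.0102). With scaling by library size only these calls were lost, and 2 of the 9, Lias and Lipt1, which make and transfer lipoate, were higher instead. Pdhb (0.09), Dlat (-0.17) and Dld (-0.20) did not pass, with adjusted p of 0.199 or more. With any 1 WT mouse or Pcx L-/- replicate 2, 3 or 4 left out, only 2 genes of the list were lower. Without Pcx L-/- replicate 1, 3 were lower and 1 was higher.

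The next list held other enzymes that make or use pyruvate, and with them the phosphoenolpyruvate carboxykinases Pck1 and Pck2. Its genes moved both ways. Of 14 genes 12 were tested, 4 were higher and 3 were lower, against shares of 14.1% and 13.5% over all tested genes, with a median log2 fold change of -0.06. The malic enzyme Me2 (1.09, adjusted p = 0.0128 by edgeR), the mitochondrial phosphoenolpyruvate carboxykinase Pck2 (0.96, adjusted p = 0.00881), Me1 (0.73) and the liver pyruvate kinase Pklr (0.84, adjusted p = 0.0285) were higher. Sdsl, a serine dehydratase relative (-1.09, adjusted p = 0.00121 by edgeR), the D-lactate dehydrogenase Ldhd (-0.75, adjusted p = 0.00991) and the cytosolic Pck1 (-0.72, adjusted p = 0.0195) were lower. Without Pcx L-/- replicate 1, 6 genes of the list were lower. Without WT replicate 3 or Pcx L-/- replicate 2, 3 or 4, only 3 genes were higher and 2 lower. Without WT replicate 1 or 2, 3 were higher. The 7 named genes kept their direction and call with scaling by library size only. The alanine transaminases Gpt (-0.15) and Gpt2 (0.38) did not pass (adjusted p = 0.633 and 0.117).

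Genes listed under monocarboxylate transport, among them carriers of lactate and pyruvate across the plasma membrane, were split. Of 11 genes 8 were tested, 2 were higher (14.1% of all genes) and 2 were lower (13.5% of all genes), also with scaling by library size only, where Bsg was called higher too. Slc16a1, which encodes the lactate transporter MCT1, had 595 to 659 normalized counts in WT and 771 to 1366 in Pcx L-/- mice, a log2 fold change of 0.84 (adjusted p = 0.00446 by edgeR). Slc16a7, which encodes MCT2, had 1186 to 2048 in WT and 464 to 1025 in Pcx L-/- mice (-1.38, adjusted p = 0.00321 by edgeR). Neither gene's values overlapped between genotypes, and their fold changes were in opposite directions. Slc16a6, which encodes a ketone body exporter, was higher (1.94, adjusted p = 0.00082 by edgeR), and Slc16a12 was lower (-1.12, adjusted p = 0.00313).

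Among 7 genes of the related branched-chain keto acid and 2-oxoglutarate dehydrogenases, 1 was higher, as were 14.1% of all genes, and 0 were lower, as were 13.5%, with a median log2 fold change of -0.13. The higher gene was Bckdk, the kinase that belongs to the same family as the Pdk genes and switches off branched-chain keto acid oxidation (0.51, adjusted p = 0.00882 by edgeR). All 4 Pcx L-/- values of Bckdk were above all 4 WT values. Its opposing phosphatase Ppm1k did not pass (-0.15, adjusted p = 0.58). DESeq2 and the fits without WT replicate 2 or Pcx L-/- replicate 1 also called 1 other gene of the list lower.

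Of 13 genes known to regulate the Pdk or Mpc genes, 2 were higher and 3 were lower, where the shares of all genes were 14.1% and 13.5%, with a median log2 fold change of -0.35. Myc (2.73, adjusted p = 0.00021 by edgeR) and Pparg (0.76, adjusted p = 0.00578) were higher. Srebf1 (-1.38, adjusted p = 0.00451 by edgeR) and Ppara, the nuclear receptor of the fasting response (-0.52, adjusted p = 0.0137), were lower, as was Nr3c1. Of these, Ppara and Nr3c1 were no longer called with scaling by library size only, and without Pcx L-/- replicate 4 only 1 gene of the list was called lower. Ppargc1a (-0.49, adjusted p = 0.168), Esrra (-0.43, adjusted p = 0.0648) and Hif1a (-0.06, adjusted p = 0.653) did not pass.

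Lists of genes that fasting, low oxygen or stress induces, several of them with Pdk1, Pdk4 or Ldha as known companions, gave a wider frame, to be read against the 14.1% of all genes that were higher and the 13.5% that were lower. Of 15 fasting targets of Ppara, a receptor that also drives Pdk4, 2 were higher (Fgf21, 4.23, and Plin2, 1.47) and 7 were lower, with a median of -0.41. Acaa1b, a peroxisomal thiolase, was among the lower genes (-0.76, adjusted p = 0.00514 by edgeR). With scaling by library size only, 5 of the 7 were still called lower, and 4 genes of the list were called lower without WT replicate 3 or without Pcx L-/- replicate 2, 3 or 4. Of 15 hypoxia-inducible genes 13 were tested, 2 were higher (Egln3, 1.20, and Aldoa, 0.81) and 1 was lower (Bnip3, -1.21, adjusted p = 0.00814 by edgeR), with a median of -0.09. By DESeq2 and without Pcx L-/- replicate 1, 3 genes of the list were lower. Of 12 targets of the integrated stress response 11 were tested, and 8 were higher and 0 lower, with a median of 2.46, with the smallest p-values for Trib3 (4.17) and Psat1 (4.48). The study named several of these stress genes from the same mice, so their direction here is not independent evidence.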

How the data were processed

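Reads were aligned to mm10 (GRCm38), and the submitters' processing notes list STAR 2.5, HTSeq 0.6.1 and DESeq2. The authors deposited raw read counts per Ensembl gene and FPKM values. Every FPKM value above 0 equals the deposited count divided by 1 length per gene and by the library total, within a relative tolerance of 1e-06. For the annotation release and the use of strand in counting, the sources used here give nothing. The libraries held 12016242 to 20023108 reads, and this depth limits the precision of lowly expressed genes.

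Genes were named from GENCODE M21 (34490 of 35275 identifiers). Counts were tested with edgeR 4.0.16 in R 4.3.3 (TMM, filterByExpr at 10 counts and a total of 15, quasi-likelihood test, genotype as the only term) and p-values were adjusted by Benjamini-Hochberg over 13168 genes. Standard errors come from the F statistic. Coding-length levels use the longest coding transcript of GENCODE M21. The named genes are the 10 members, Pcx, fixed partner genes, for each list the 2 called genes of lowest p on each side, and the 3 genes that correlate best with Pdk1, Mpc2 and Pdk4; Mpc1-ps and genes beyond this rule were named after their values were seen, and some genes under the rule are not reported here. Alternatives used DESeq2 1.42.0, apeglm 1.24.0 and limma 3.58.1 (log2(FPKM + 1) and log2(FPKM + 0.1)). The members and lists were chosen with earlier results of these data known. The steps were tested on simulated data. Each library came from a separate mouse, and the proteins and metabolites of the study are not analysed here.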

Additional observations from a re-analysis of the deposited data

Results flagged for a closer look

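Pdk2 in Pcx L-/- replicate 1 stood apart from the other 3 mice of its genotype. Its 2455 normalized counts lay above the next mouse by 0.904 of the genotype's whole range, more than Dixon's critical value for 4 samples. It was 1 of 22 groups of 4 mice examined, and chance puts about 1 such group in 20 over the limit.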

How the results depend on the processing

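The edgeR settings changed 1 choice each, whereas DESeq2 and limma on FPKM also brought their own scaling and DESeq2 and 1 limma setting another filter. DESeq2 was counted with and without apeglm, which changes the fold change but not the adjusted p. The 19 settings are therefore not 19 separate tests. Pdk1, Mpc2 and Pdk4 kept their direction in all 19 settings. Pdk1 passed in 19 of 19 settings, Mpc2 in 9, and Mpc1, Pdk2 and Pdk4 in 5 each. With 1 mouse left out the number of the 9 genes called ran from 1 to 4, against 3 with all mice, and it was 1 without replicate 2 or 3 of WT, or without any Pcx L-/- mouse other than replicate 1. The number of all genes called then ran from 2109 without Pcx L-/- replicate 4 to 4602 without Pcx L-/- replicate 1, against 3632, and was 2295 without Pcx L-/- replicate 2. Within the mice numbered in the 800s, a comparison of WT replicates 3 and 4 with Pcx L-/- replicates 2, 3 and 4 that was chosen after seeing the data, 5 of the 9 genes were called, 1 higher and 4 lower. With library size only 4785 genes were called.

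Mpc2 was not called by limma on FPKM (adjusted p = 0.195 to 0.234), and Mpc1 was (0.00706 to 0.0178), also with the range of mouse numbers as a covariate (0.0439). DESeq2 called 3 of the 9 genes, all lower. Among the lists, calls moved from 1 to 2 for the branched-chain relatives (DESeq2, without WT replicate 2, without Pcx L-/- replicate 1), from 7 to 4 lower for the Ppara targets (without WT replicate 3 or Pcx L-/- replicate 2, 3 or 4), from 5 to 3 for the regulators (without Pcx L-/- replicate 4) and from 3 to 5 for the hypoxia genes (DESeq2, without Pcx L-/- replicate 1). The cause was not tested. Replicate numbers did not pair the mice: same-numbered mice correlated with r = 0.10, -0.13, -0.10 and -0.07, and 1 of 4 correlated best with its own number. With a replicate block 3 of the 9 genes and 2975 genes in all were called, with Pdk2 in (adjusted p = 0.0386 by edgeR) and Mpc2 out (0.0538). Pdk3, Pdp1, Ldhb and Mpc1 had few reads, which limits their precision.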
